A study of Mus musculus with 154 samples.

Results

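Liver RNA of 3 mice that carried A/J chromosomes 3 and 8 together was compared with that of mice carrying either chromosome alone and of mice carrying neither. The mice were 5 weeks old, male, on the C57BL/6J (B6) background, fasted before the caudate lobe was taken, and they were chosen by their strain labels, which name the sire first: (B6.A8 X B6.A3)F1 (the double strain, 3 mice), (B6 X B6.A3)F1 (8 mice), (B6.A8 X B6)F1 (8 mice) and B6 (20 mice). The double mice were 1.95% of the mice of the series and the 4 strains together 25.3%. B6.A3 and B6.A8 are chromosome substitution strains, in which the named chromosome of B6 is replaced by that of the strain A/J, so that each F1 mouse was heterozygous for the A/J chromosomes it carried. The double strain and (B6 X B6.A3)F1 had B6.A3 dams, whereas the dams of (B6.A8 X B6)F1 and B6 were B6, and chromosome 3 and the strain of the dam cannot be told apart. The study states that the mice of each cross came from at least 3 breeding cages, but not whether this holds for the sequenced mice alone. Their cage, litter and flow cell are not given in the sources used here. The study describes the cross of B6.A8 with B6.A3 as a poor breeder that gave fewer than 5 samples.

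An interaction between 2 chromosomes is the part of the double strain's difference from B6 that the sum of the 2 single differences does not give, on the log2 scale. A gene's own chromosome matters for how it is read: variants near a gene act on that gene in cis, whereas an effect on a gene elsewhere in the genome is in trans. The fasted liver makes glucose from amino acids, glycerol and lactate, burns fatty acids and secretes most plasma proteins, and several of these programmes are under hormonal control by glucagon, glucocorticoids and growth hormone.

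Differences in the deposited read counts were taken from a quasi-likelihood fit in edgeR, a model of all 24 strains with 5 surrogate variables, which are estimated patterns of unlabelled variation among mice. Genes on and off the substituted chromosomes had their p-values adjusted apart from each other (Benjamini-Hochberg), a gene was called at an FDR under 0.05, and "edgeR adjusted p" stands for this value throughout. Levels are given as CPM, counts scaled to a normalized library size that is the same for all mice, without correction for the surrogate variables. The 3 double mice, E141, E688 and E689, had 19519503, 9996163 and 19213811 counts in tested genes, and the mice of the other 3 strains had between 6752637 and 29437186. Log2 CPM correlated with r between 0.978 and 0.986 across genes among the double mice, and within each of the 4 strains every pair of mice differed by at least 15 times the counting noise, and all were counted as separate samples.

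The libraries of (B6.A8 X B6)F1 mostly differed from those of the other 3 strains in 3 measures, although each measure overlapped with B6. The share of counts from mitochondrially encoded genes was 7.87%, 9.10% and 7.10% in E141, E688 and E689, between 6.77% and 11.6% in B6, between 5.64% and 11.7% in (B6 X B6.A3)F1, and between 9.42% and 20.8% in (B6.A8 X B6)F1. In 6 of the 8 (B6.A8 X B6)F1 mice this share was above that of every B6 mouse, whereas it was between 6.90% and 9.58% in the 19 mice of the 4 strains that carried A/J chromosome 8 beside another A/J chromosome. The slope of a mouse's levels on the GC share of the gene's longest transcript, in log2 units per 10 percentage points and relative to the mean of all mice, was 0.0434, -0.0756 and 0.0603 in E141, E688 and E689, between -0.123 and 0.109 in B6, and between -0.228 and -0.0925 in (B6.A8 X B6)F1. The summed level of 37 small nucleolar and nuclear RNA genes was between 5476 and 10660 CPM in the double mice. It was between 4843 and 12100 CPM (median 7549) in B6 and between 6850 and 13900 CPM (median 11080) in (B6.A8 X B6)F1. The interaction subtracts the (B6.A8 X B6)F1 difference, so these measures moved with it, and their part in the results below was not tested beyond the fits that carried them as covariates or took a curve on GC share out of the values.

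**Figure D1:**
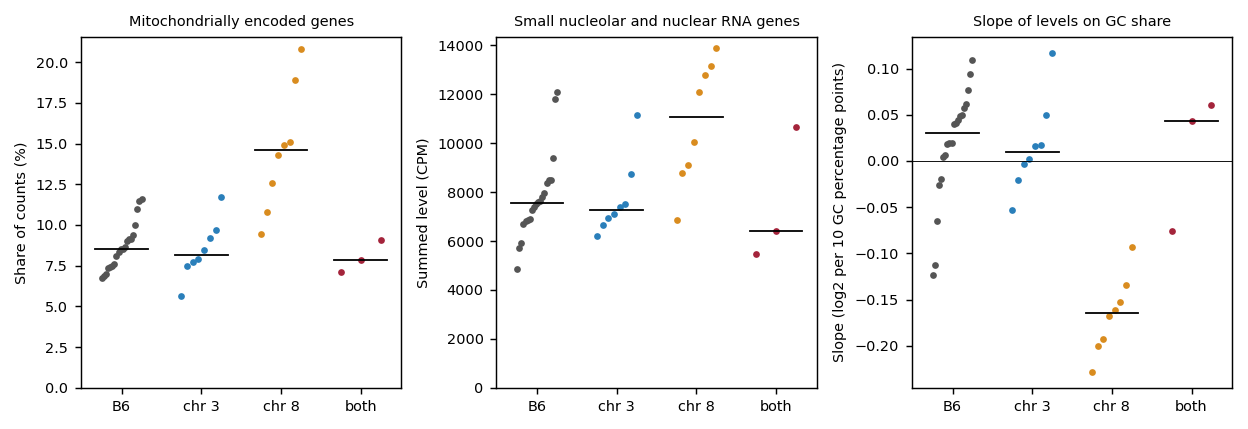
Share of counts from mitochondrially encoded genes (left, percent), summed level of small nucleolar and nuclear RNA genes (middle, CPM) and slope of levels on GC share (right, log2 per 10 percentage points), each point 1 mouse and each black line the median, for B6, (B6 X B6.A3)F1 (chr 3), (B6.A8 X B6)F1 (chr 8) and the double strain (both). The (B6.A8 X B6)F1 mice reach a mitochondrial share of 20.8% and have slopes from -0.228 to -0.0925, whereas the double mice lie within the range of B6 in each panel.

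The double strain departed from the sum of the single effects for 1007 of 13289 genes tested (7.58%), of which 654 were higher and 353 lower than the sum. The best supported were Gne, the key enzyme of sialic acid synthesis, Map1lc3b, which encodes an autophagosome protein, and the splicing factor gene Puf60 on the higher side, and the mismatch repair gene Pms1, the exon junction gene Magoh and the small GTPase gene Rap1a on the lower side. The largest values were those of Lpin1, the phosphatidic acid phosphatase and transcriptional coactivator lipin 1, and Rgs16, a regulator of G protein signalling, with interactions of 2.87 each. Over the 654 higher genes the median log2 difference from B6 was -0.345 in (B6.A8 X B6)F1, -0.105 in (B6 X B6.A3)F1 and -0.00446 in the double strain, and over the 353 lower genes these medians were 0.368, 0.111 and -0.0172. These medians come from the contrasts that define the interaction and are given as a description.

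Gne (chromosome 4, 44034075 to 44084177, GRCm38) was at 112, 133 and 155 CPM in E141, E688 and E689. It was between 66.8 and 86.4 CPM (median 70.3) in the 8 (B6.A8 X B6)F1 mice, between 94.1 and 104 CPM (median 98.8) in (B6 X B6.A3)F1 and between 92.9 and 170.5 CPM (median 123.99) in B6. All 3 double mice were above every mouse of either single strain and within the range of B6. The sum of the single effects would have put the double strain at 58.4 CPM, and the interaction was 1.12 (SE 0.16, edgeR adjusted p = 8.78e-07). Leaving out 1 double mouse at a time gave 1.20, 1.15 and 1.01, in the order E141, E688 and E689.

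Lpin1 was at 273, 289 and 341 CPM in the double mice. It lay between 29.7 and 208 CPM (median 90.6) in (B6 X B6.A3)F1, between 54.9 and 197 CPM (median 119) in (B6.A8 X B6)F1 and between 64.6 and 547 CPM (median 306) in B6. The double mice were thus above all 16 mice of the single strains and within the wide range of B6. The interaction was 2.87 (SE 0.56, edgeR adjusted p = 0.000660), against an additive level of 45.4 CPM. Herpud1, on chromosome 8, which encodes a membrane protein of endoplasmic reticulum-associated degradation, was at 349.1, 510.2 and 564 CPM in the double mice. Its levels were between 174 and 314 CPM in (B6 X B6.A3)F1, between 172 and 267 CPM in (B6.A8 X B6)F1 and between 219 and 532 CPM in B6. Here too no single-strain mouse reached the lowest double mouse, and the interaction was 1.52 (SE 0.30, edgeR adjusted p = 0.000378).

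Among the remaining genes of the higher side, Puf60 was at 36.5, 35.4 and 35.1 CPM in the double mice and between 21.4 and 31.9 CPM in (B6.A8 X B6)F1. Its interaction was 0.48 (SE 0.08), and the 3 double mice lay within the range of B6 (31.2 to 44.04 CPM). Map1lc3b, on chromosome 8, was at 109.6, 115.4 and 137.97 CPM against 84.3 to 90.6 CPM in (B6.A8 X B6)F1, with an interaction of 0.54 (SE 0.09, edgeR adjusted p = 4.34e-05). Serpinf1, which encodes the secreted pigment epithelium-derived factor, had an interaction of 0.55 (SE 0.10). Apex2, a DNA repair endonuclease gene, had 0.99 (SE 0.18), but it overlaps Pfkfb1 on the opposite strand, and whether the counting used strand is not stated. Mknk2, a kinase of the translation factor eIF4E, had 1.13 (SE 0.21), and Slc25a32, the mitochondrial folate carrier, had 0.94 (SE 0.17). Rgs16 was at 6.96, 32.4 and 34.3 CPM in E141, E688 and E689, so that the double mice themselves spread over the range of B6 (0.727 to 45.2 CPM), and its interaction of 2.87 (SE 0.82) had an edgeR adjusted p of 0.163 without E689. The poorly characterized Phf11c, with 2.25 (SE 0.62), lost its call in the same way (edgeR adjusted p = 0.161), whereas Tmc7, a transmembrane channel-like gene, kept it with 2.13 (SE 0.42) and was at 12.2, 15.2 and 16.99 CPM, above all 16 single-strain mice.

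**Figure D2:**
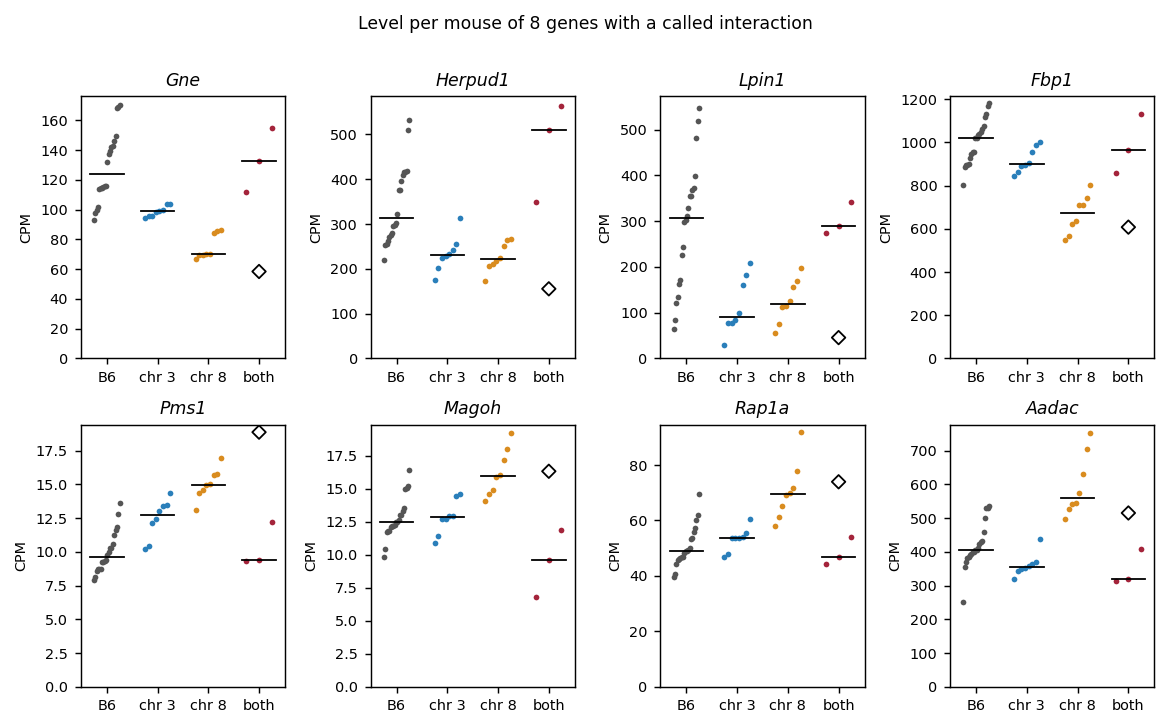
Level (CPM) of 8 genes with a called interaction in each mouse of B6, (B6 X B6.A3)F1 (chr 3), (B6.A8 X B6)F1 (chr 8) and the double strain (both), with a black line at each median and an open diamond at the level that the sum of the single effects would give. For Gne, Herpud1, Lpin1 and Fbp1 the 3 double mice lie above the diamond, and for Pms1, Magoh, Rap1a and Aadac they lie below it.

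Pms1 was at 9.32, 12.2 and 9.37 CPM in E141, E688 and E689. Its levels were between 13.1 and 16.9 CPM (median 14.99) in (B6.A8 X B6)F1, between 10.2 and 14.4 CPM (median 12.7) in (B6 X B6.A3)F1 and between 7.89 and 13.6 CPM (median 9.61) in B6. All double mice were below every (B6.A8 X B6)F1 mouse, and the interaction was -0.87 (SE 0.16, edgeR adjusted p = 0.000277). The level of Magoh was 9.56, 11.9 and 6.77 CPM in the double mice against 14.1 to 19.2 CPM in (B6.A8 X B6)F1, with an interaction of -0.71 (SE 0.13). It was also lower in the double strain than in B6, by -0.37 on the log2 scale (edgeR adjusted p = 0.0394), a call that was lost without E689 (adjusted p = 0.615) and without E141 (adjusted p = 0.0554). Rap1a, on chromosome 3, was at 44.4, 54.1 and 46.7 CPM against 58.1 to 91.9 CPM in (B6.A8 X B6)F1, with an interaction of -0.61 (SE 0.11), and 4 tested gene models lie within it on the same strand. The other lower genes with the smallest p-values were C1galt1, which builds O-linked glycans (-0.55), Ankrd50, an endosomal recycling gene on chromosome 3 (-0.53), Cpeb4, an RNA-binding regulator of translation (-0.74), Lhfpl2 (-0.96) and the nucleic acid-binding protein gene Cnbp (-0.38). Of these, Ankrd50 (adjusted p = 0.0954) and Cpeb4 (adjusted p = 0.0601) were not called without E689.

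The largest values on the lower side were those of Mup5 (-2.24, SE 0.71), Mup6 (-1.64, SE 0.47), the noncoding Gm13775 (-1.59, SE 0.51), which lies among the Mup genes of chromosome 4, and Leap2 (-1.46, SE 0.35), which encodes a peptide that acts on the ghrelin receptor. Leap2 was at 18.5, 13.8 and 12.1 CPM in the double mice and between 17.5 and 52.2 CPM in (B6.A8 X B6)F1, so that the groups overlapped, and it stayed called without any 1 double mouse. Mup5 was at 0.0981, 1.75 and 0.852 CPM and Mup6 at 2.21, 12.5 and 3.69 CPM in E141, E688 and E689, and both overlapped with every other strain. Neither was called without E141 or without E689, and Gm13775 was not called without E141 (adjusted p = 0.250). Reads of these near-identical genes may also have been divided among them in counting.

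Of the 1428 genes on chromosome 3 or 8, 90 had a called interaction (6.30%), against 917 of 11861 genes elsewhere (7.73%). Chromosome 3 held 39 of them among 737 genes, 20 higher and 19 lower, and chromosome 8 held 51 (7.38% of its genes), 38 higher and 13 lower. On chromosome 3 the smallest p-values after those of Rap1a and Ankrd50 included that of Aadac, arylacetamide deacetylase, which was at 313, 409.8 and 319.6 CPM in the double mice and between 497.7 and 751.8 CPM in (B6.A8 X B6)F1 (interaction -0.53, SE 0.12, edgeR adjusted p = 0.00131). On chromosome 8, Lcat, the plasma enzyme that esterifies cholesterol on lipoproteins, was at 338, 319 and 309.6 CPM against 171 to 288 CPM in (B6.A8 X B6)F1 (interaction 0.45, SE 0.09, edgeR adjusted p = 0.000378). In both genes the double mice lay within the range of B6 and outside that of (B6.A8 X B6)F1. Agt, the angiotensinogen gene on chromosome 8, was at 381.5, 285.3 and 302.2 CPM in the double mice, between 184 and 319 CPM (median 214) in (B6.A8 X B6)F1 and between 381.5 and 590 CPM (median 480.3) in B6. Its interaction of 0.42 (SE 0.14) was not called (edgeR adjusted p = 0.0633), although it passed the threshold without E688 (adjusted p = 0.0245). This differs from the study, which reports an interaction of chromosomes 8 and 3 for Agt and no difference of this double strain from B6. Here Agt was called lower in the double strain than in B6, as given below.

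The counts of called genes in the lists that follow stand against 7.58% called over all 13289 genes, 654 higher and 353 lower. Over all genes this share was 1.57% with the mitochondrial share as a further covariate, 1.43% with the GC slope, 4.48% with the small RNA level, 4.27% without E689, and 1.01% without E689 when the surrogate variables of the whole series were kept.

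Of 21 genes of gluconeogenesis and glycolysis, 11 were called higher and none lower, with a median interaction of 0.43 over the 21 genes, against a median of 0.01 over all 13289 genes. Fbp1, the fructose-1,6-bisphosphatase that commits carbon to glucose, was at 861, 964 and 1133 CPM in the double mice, between 549.4 and 804.5 CPM in (B6.A8 X B6)F1 and between 804.5 and 1182 CPM in B6 (interaction 0.66, SE 0.12). Pcx, which encodes pyruvate carboxylase, was at 379.2, 382.0 and 443.0 CPM in the double mice and between 196.3 and 296.98 CPM in (B6.A8 X B6)F1 (interaction 0.70, SE 0.18). Pck1, the cytosolic phosphoenolpyruvate carboxykinase, was at 4271, 4276 and 4599 CPM, above all 16 single-strain mice, whose highest was 3874 CPM, and had an interaction of 0.89 (SE 0.24). The bifunctional phosphofructokinase regulator Pfkfb1 (0.87) and the glycolytic enzyme gene Gapdh (0.54) were called as well, and the double mice overlapped with (B6.A8 X B6)F1 in both. With the mitochondrial share as a further covariate 3 of the 21 genes were called, with the GC slope 2, and without E689 9, or 2 when the surrogate variables of the whole series were kept.

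Among 60 genes of amino acid catabolism and the urea cycle, 17 were called higher than the sum and none lower, with a median interaction of 0.32. Cps1, the first enzyme of the urea cycle, was at 8521, 6746 and 7133 CPM in the double mice, between 3218 and 6516 CPM in (B6.A8 X B6)F1 and between 6138 and 13634 CPM in B6 (interaction 0.82, SE 0.17, edgeR adjusted p = 0.00119). Bckdha, a subunit of the branched-chain keto acid dehydrogenase, had 0.44 (SE 0.09), Got2, the mitochondrial aspartate aminotransferase on chromosome 8, had 0.58 (SE 0.11), and the glyoxylate-detoxifying Agxt had 0.86 (SE 0.18). In each of these 4 genes all double mice were above all 8 (B6.A8 X B6)F1 mice and inside the range of B6. These were the members with the smallest interaction p, so the separation goes with their choice. Of the 60 genes, 7 were called with either the mitochondrial share or the GC slope as a covariate.

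Fatty acid oxidation genes and targets of PPARalpha, the nuclear receptor of the fasting response, gave 12 higher calls among 38 genes and none lower, with a median of 0.42. Cpt1a, the carnitine palmitoyltransferase that admits long-chain fatty acids to mitochondria, was at 685, 779 and 917 CPM in the double mice and between 354 and 563 CPM in (B6.A8 X B6)F1 (interaction 0.96, SE 0.19, edgeR adjusted p = 0.000575). The dehydrogenase genes Acads (0.47, SE 0.10) and Acadvl (0.37, SE 0.10) and the thiolase gene Acaa2 (0.38, SE 0.09) were called too, with the double mice clear of (B6.A8 X B6)F1 for Acads only. With the mitochondrial share as a covariate 2 of the 38 genes were called, and with the GC slope 1.

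Of 28 genes that respond to glucocorticoids or fasting, 8 were called higher and 1 lower, with a median of 0.27. Tat, the tyrosine aminotransferase on chromosome 8 and a textbook glucocorticoid target, was at 2333, 1881 and 2351 CPM in the double mice, between 989 and 2299 CPM in (B6 X B6.A3)F1, between 822 and 1941 CPM in (B6.A8 X B6)F1 and between 1331 and 3765 CPM in B6. Its interaction was 1.39 (SE 0.34, edgeR adjusted p = 0.00381), although the double mice overlapped with each of the other strains. Fkbp5, a chaperone of the glucocorticoid receptor, was at 100.6, 130.6 and 136.5 CPM against at most 98.8 CPM in (B6.A8 X B6)F1 and 112 CPM in (B6 X B6.A3)F1 (interaction 1.40, SE 0.36). The transcription factor gene Foxo3, at 56.2, 61.1 and 74.3 CPM, was above all 16 single-strain mice, whose highest was 52.3 CPM (interaction 0.81, SE 0.19). With either the mitochondrial share or the GC slope as a covariate 2 of the 28 genes were called, and without E689 6 were.

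Lists of plasma protein genes differed in their counts. None of 26 acute-phase genes was called by edgeR, with a median of 0.083, although 1 was by DESeq2 and 7 had an unadjusted p under 0.05. Of 39 measured genes of complement and coagulation, from a list of 41, 13 were called higher and none lower, with a median of 0.29. Serpinf2, which encodes the plasmin inhibitor, was at 646.8, 609.0 and 692.6 CPM in the double mice and between 309 and 553 CPM in (B6.A8 X B6)F1 (interaction 0.59, SE 0.14). F5, coagulation factor V, had 0.52 (SE 0.13), the antithrombin gene Serpinc1 had 0.35 (SE 0.09) and the prothrombin gene F2 had 0.35 (SE 0.09), and for Serpinc1 the double mice (1508 to 1709 CPM) overlapped with (B6.A8 X B6)F1 (864 to 1635 CPM) and the call was lost without E141 (adjusted p = 0.0667). Of the 39 genes, 9 were called with the small RNA level as a covariate, and at most 2 with the mitochondrial share or the GC slope. Of 22 apolipoprotein and lipoprotein genes 4 were called, all higher, including Apom, which carries sphingosine-1-phosphate (0.47, SE 0.10), Apoe (0.28, SE 0.08), the HDL receptor gene Scarb1 (0.42, SE 0.14) and Lcat. Scarb1 was not called without E141 (adjusted p = 0.0805) or without E689 (adjusted p = 0.103), and Apoe was not called without E689 (adjusted p = 0.080). Of 10 hepatocyte markers 3 were called higher, Cps1, the transcription factor gene Hnf4a (0.46) and Serpina1a (0.42), while Trf, transferrin, with 0.36, was not. Hnf4a was not called without E688 (adjusted p = 0.0663) or without E689 (adjusted p = 0.0591), and Serpina1a was not called without E689 (adjusted p = 0.304).

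Of 25 cholesterol synthesis genes and SREBP2 targets 3 were called higher, with a median of 0.38, among them the lanosterol synthase gene Lss (0.68) and Ebp (0.24), against 7.58% of all genes called. Lss was not called without E689 (adjusted p = 0.242), and Ebp was called neither without E141 (adjusted p = 0.0671) nor without E689 (adjusted p = 0.0521). In the comparison of the double strain with B6, 1.87% of all genes were called. There 5 of the 25 were called higher in the double strain, among them the squalene epoxidase gene Sqle. Sqle was at 3.48, 11.2 and 12.3 CPM in E141, E688 and E689 and between 0.939 and 10.3 CPM in B6 (log2 difference 1.42, SE 0.38, edgeR adjusted p = 0.0322), and it was called without E141 but neither without E688 (adjusted p = 0.281) nor without E689 (adjusted p = 0.461). Of 25 bile acid genes 2 were called with an interaction, Amacr (0.42), a peroxisomal racemase, and Slc27a5 (0.38), which conjugates bile acids with coenzyme A. Neither was called without E689 (adjusted p = 0.0648 and 0.0701), and Slc27a5 was not called without E688 either (adjusted p = 0.0669). The transporter gene Slc10a1 had 0.46 (edgeR adjusted p = 0.0570) and the nuclear receptor gene Nr0b2 had 1.22 (edgeR adjusted p = 0.0902).

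In the endoplasmic reticulum stress and secretion list, 5 of 43 genes were called higher and none lower, with a median of 0.07. Besides Herpud1 they included the disulfide isomerase gene P4hb, at 891, 1211 and 1013 CPM against 531.4 to 804.7 CPM in (B6.A8 X B6)F1 (interaction 0.52, SE 0.12), the oligosaccharyltransferase subunit gene Dad1 (0.37) and the translocon gene Sec61a1 (0.47), which was not called without E688 (adjusted p = 0.0791). Of 23 clock genes 2 were called, both lower, among them Clock itself, which is a share near the 7.58% of all genes. The list as a whole went the other way, with a median of 0.42 and a positive interaction in 15 of the 23. Clock was at 122.3, 131.1 and 101.3 CPM in the double mice and between 131.9 and 161.6 CPM in (B6.A8 X B6)F1 (interaction -0.36, SE 0.11). It was not called without E141 (adjusted p = 0.0510) or without E689 (adjusted p = 0.181). The heterodimer partner of Clock, Arntl, had -1.08 (edgeR adjusted p = 0.0808), and Usp2 had 1.36 (edgeR adjusted p = 0.0875).

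The Mup genes, which encode pheromone-binding urinary proteins and rise with pulses of growth hormone in males, differed in the other direction. All 18 measured members had a negative interaction, with a median of -1.19, but 3 were called: Mup5, Mup6 and Mup3. Mup3 was at 4261, 6974 and 5865 CPM in the double mice, between 3887 and 7657 CPM in (B6 X B6.A3)F1, between 6441 and 8339 CPM in (B6.A8 X B6)F1 and between 1041 and 6828 CPM in B6 (interaction -0.90, SE 0.30, edgeR adjusted p = 0.0462), and it was called neither without E141 (adjusted p = 0.146) nor without E688 (adjusted p = 0.0637). Against B6, 16 of the 18 were called higher in (B6.A8 X B6)F1, 10 in (B6 X B6.A3)F1 and 9 in the double strain, and edgeR called no member lower in any of the 3. Over all genes these comparisons called 29.7%, 3.69% and 1.87%, in either direction. Mup8 had an interaction of -1.37 (edgeR adjusted p = 0.0726). Of 20 male-biased liver genes, Mup3 alone was called with an interaction, and Elovl3 (-1.67), C8b (0.41) and Mup7 (-1.76) were not. Of 14 measured female-biased genes, from a list of 22, none was called by edgeR or DESeq2 and 3 had an unadjusted p under 0.05, and the 4 with the smallest p were Atp6v0d2 (1.65, edgeR adjusted p = 0.05001), Cux2 (2.14), Fmo2 (0.78) and Cyp17a1 (1.08).

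Of 75 nuclear genes for subunits of the respiratory chain, 10 were called higher and 10 lower, with a median of -0.04. The catalytic ATP synthase genes Atp5b (0.37, SE 0.08) and Atp5a1 (0.43, SE 0.10) and the complex I flavoprotein gene Ndufv1 (0.38, SE 0.08) were among the higher ones, and the small accessory subunit gene Ndufb11 (-0.42, SE 0.09) among the lower ones. The longest transcript of the 10 higher genes had a median length of 1880 nucleotides, and that of the 10 lower genes 1071 nucleotides. Over all interaction calls there was little such difference, with medians of 3340 nucleotides for the 654 higher and 3233 for the 353 lower genes. The median over all tested genes was 3295 nucleotides. None of the 17 mitochondrially encoded genes was called by edgeR or DESeq2, and 4 had an unadjusted p under 0.05. The ribosomal RNA gene mt-Rnr2 came nearest, with 47538, 58944 and 36512 CPM in the double mice, a median of 99945 CPM in (B6.A8 X B6)F1 and an interaction of -0.89 (SE 0.33, edgeR adjusted p = 0.0689), followed by mt-Nd6 (-0.72), mt-Rnr1 (-0.85) and mt-Co1 (-0.25). Over all genes, 29.7% were called in (B6.A8 X B6)F1 against B6 and 1.87% in the double strain against B6. Of the 37 small nucleolar and nuclear RNA genes 28 were called higher in (B6.A8 X B6)F1 than in B6, and edgeR called none in the double strain, where 0 had an unadjusted p under 0.05. Their median interaction was -0.95, with Scarna13 (-0.98) and Scarna6 (-1.01, not called without E141 or without E689, adjusted p = 0.109 and 0.0504) called and Snord22 (-1.23) and Snord55 (-2.49) not, and each of the 4 overlaps a gene on its own strand.

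Base composition differed between the 2 directions of the interaction. The GC share of the longest transcript had a median of 51.8% over the 654 higher genes and of 42.3% over the 353 lower genes, against 48.8% over all tested genes. For the genes called in (B6.A8 X B6)F1 against B6 the medians were 43.3% (higher) and 51.2% (lower). For those called in (B6 X B6.A3)F1 they were 48.35% (higher) and 48.41% (lower), and for those called in the double strain against B6 they were 47.2% (higher) and 47.4% (lower).

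The direct comparison of the double strain with B6 gave 249 called genes (1.87%), of which 152 were higher and 97 lower. On chromosomes 3 and 8, 83 of 1428 genes were called (5.81%), and elsewhere 166 of 11861 (1.40%). The 6 higher genes with the smallest p were Arhgef10, Tnfsf10, Asic5, Sntb2, Pkd2 and Mup17, and the 6 lower ones were Agt, H2-Q4, Dnajc25, Defb1, Rps3a1 and Hnrnpab.

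Arhgef10, a guanine nucleotide exchange factor gene on chromosome 8 (14911663 to 15001085, GRCm38), was at 8.09, 10.9 and 13.6 CPM in the double mice, between 8.14 and 10.1 CPM in (B6.A8 X B6)F1, between 2.85 and 4.05 CPM in (B6 X B6.A3)F1 and between 2.22 and 4.59 CPM in B6. The strains with A/J chromosome 8 did not overlap with those without it, the difference from B6 was 1.61 (SE 0.13, edgeR adjusted p = 1.38e-19), and the interaction was 0.42 (SE 0.19) and not called. Sntb2, the syntrophin beta 2 gene on the same chromosome, gave 0.82 (SE 0.10) in the double strain and 0.90 in (B6.A8 X B6)F1, with an interaction of -0.07 (SE 0.14). Agt gave -0.61 (SE 0.12) in the double strain and -0.86 in (B6.A8 X B6)F1, and Defb1, a defensin gene of chromosome 8, gave -1.17 (SE 0.24) and -0.84. Defb1 was at 6.03, 1.85 and 2.22 CPM in E141, E688 and E689, so that E141 lay within the range of B6 (4.07 to 17.6 CPM) and the other 2 mice below it. Without E141 its difference from B6 was -1.80, and without E689 it was -0.97 and no longer called (adjusted p = 0.0579).

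Asic5, an ion channel gene of chromosome 3, was at 37.6, 62.1 and 56.4 CPM in the double mice, between 37.8 and 63.0 CPM in (B6 X B6.A3)F1 and between 6.90 and 27.1 CPM in B6. The difference from B6 was 1.93 (SE 0.21) in the double strain and 1.59 in (B6 X B6.A3)F1, and the groups with A/J chromosome 3 did not overlap with B6. Tnfsf10, which encodes the death ligand TRAIL and lies on chromosome 3 (27317028 to 27342427), was at 16.2, 19.8 and 19.7 CPM in the double mice, between 16.5 and 24.6 CPM in (B6 X B6.A3)F1, between 6.74 and 13.4 CPM in (B6.A8 X B6)F1 and between 3.43 and 10.9 CPM in B6. It rose in both singles, by 1.56 and 0.55 on the log2 scale, and in the double strain by 1.30, so that it was 1 of the cis genes with a called interaction (-0.81, SE 0.19, edgeR adjusted p = 0.00310). Rps3a1, a ribosomal protein gene of chromosome 3 that holds a tested small RNA gene, fell by 0.37 in the double strain and by 0.34 in (B6 X B6.A3)F1, and the first call was lost without E689 (-0.27, adjusted p = 0.120).

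Off the 2 chromosomes, Pkd2, the polycystin 2 gene on chromosome 5, was at 31.98, 24.5 and 31.8 CPM in the double mice, between 28.9 and 35.4 CPM in (B6.A8 X B6)F1 and between 14.5 and 20.9 CPM in B6. It rose by 0.58 (SE 0.07, edgeR adjusted p = 1.74e-08) in the double strain and by 0.56 in (B6.A8 X B6)F1, with an interaction of 0.01 (SE 0.10). Mup17 was at 5.10, 720 and 346 CPM in E141, E688 and E689, so that E141 lay near the median of B6 (4.82 CPM) and the other 2 mice above all 20 B6 mice, whose highest was 99.9 CPM. Its fitted difference of 4.56 (SE 0.65) carries this spread among the double mice. The class I gene H2-Q4 (-0.64), the cochaperone gene Dnajc25 (-0.40) and the RNA-binding protein gene Hnrnpab (-0.30) were lower, and all 3 lost the call without E688 (adjusted p between 0.0527 and 0.096).

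**Figure D3:**
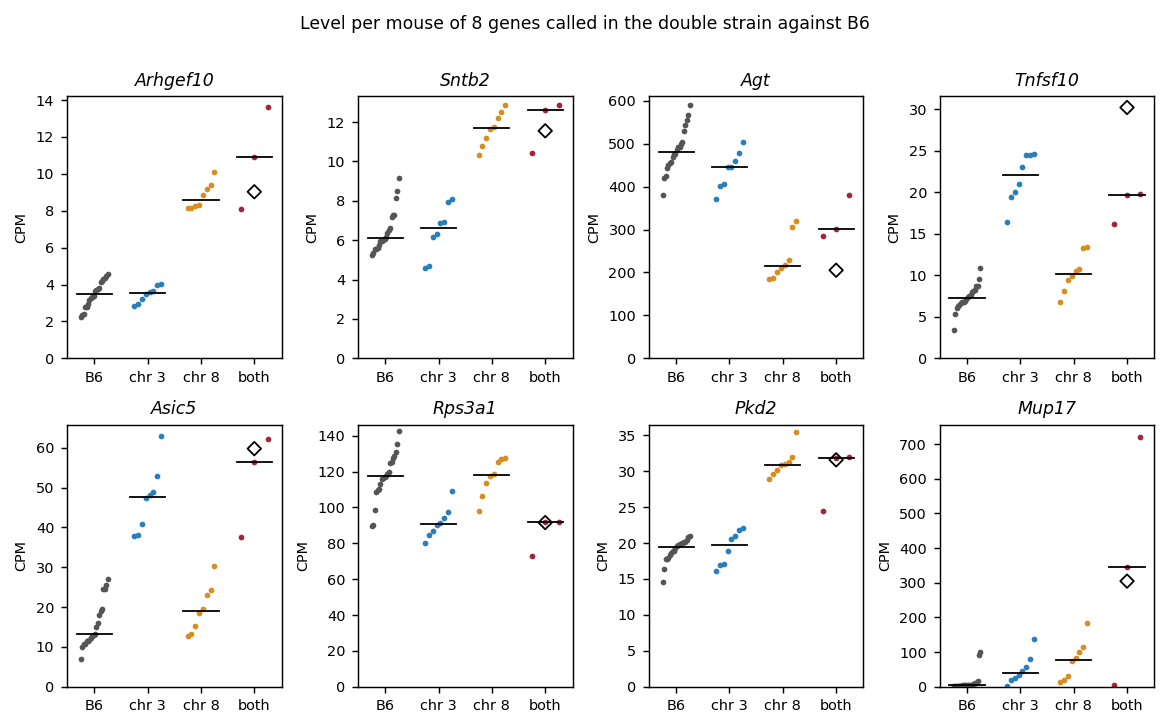
Level (CPM) of 8 genes called in the double strain against B6 in each mouse, with the strains, lines and diamonds as in the plot of genes with a called interaction. In Arhgef10, Sntb2, Pkd2, Asic5 and Rps3a1 the double mice lie around the additive level, in Tnfsf10 they lie below it, in Agt above it, and in Mup17 they spread from 5.10 to 720 CPM.

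The effect of A/J chromosome 8 was measured once on the B6 background and once beside A/J chromosome 3, in mice that do not overlap. Both values come from the same fit, in which all mice share the surrogate variables, so they are not fully independent. On B6 it had 3953 called genes (29.7%), 1725 higher and 2228 lower. Beside chromosome 3 it had 25 (0.188%), 20 of them on chromosome 8 and 5 among the 12598 genes elsewhere. With 3 mice the second comparison is less precise, with a median SE of 0.11 against 0.08 over the 9716 genes whose average log2 CPM was 2 or more, so the counts are not directly comparable. Over these genes the median absolute effect beside chromosome 3 was 0.082, below that SE, which also limits the correlation between the 2 effects. The 1725 higher genes had a median difference of 0.32 on B6 and 0.024 beside chromosome 3 (quartiles -0.068 and 0.11), and the 2228 lower genes had -0.29 and -0.0022 (quartiles -0.084 and 0.076). These genes were chosen by the first value, which is therefore a description. Over the 9716 genes the 2 effects correlated with r = 0.16 across genes, which share the libraries of each strain. This r was 0.0754 without E688, 0.0757 with the 4 strains alone and 5 surrogate variables, and 0.259 with 10 surrogate variables. For the 238 called genes that lie on chromosome 8 the correlation was 0.54 and 17 were called in the same direction beside chromosome 3, and for the 3715 elsewhere it was 0.24 and 2 were.

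**Figure D4:**
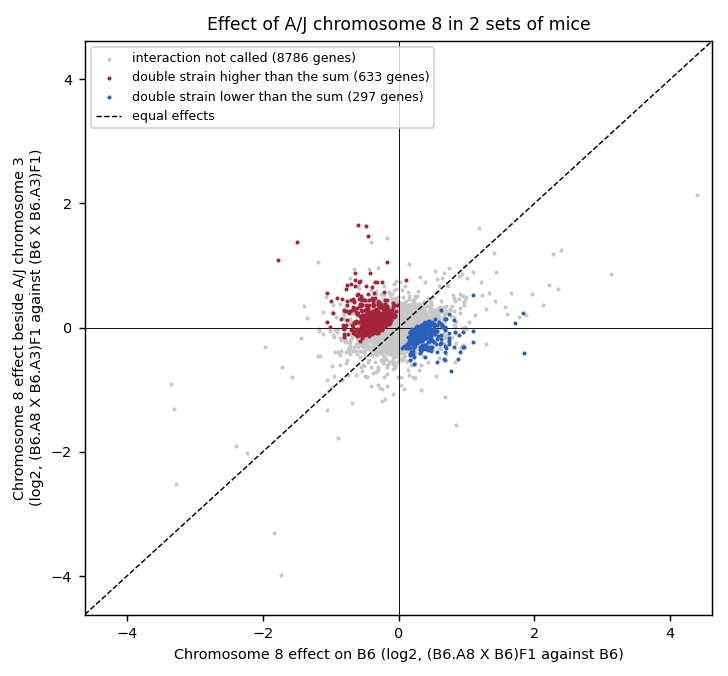
Effect of A/J chromosome 8 on B6 (horizontal axis, log2) and beside A/J chromosome 3 (vertical axis, log2) for 9716 genes, with genes called higher or lower than the sum in colour. The points lie along the horizontal axis rather than along the dashed line of equal effects (r = 0.16), apart from a few genes near the line.

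The effect of A/J chromosome 3 was called for 490 genes on B6 (3.69%, 257 higher and 233 lower) and for 884 beside chromosome 8 (6.65%, 300 of them lower and the rest higher), again in mice that do not overlap. The 88 called genes of chromosome 3 correlated with r = 0.68 between the 2 backgrounds, with a median in the same direction of 0.37 on B6 and 0.18 beside chromosome 8. For the 402 genes elsewhere r was -0.19, and the median beside chromosome 8 was -0.054 in the direction of the effect on B6. The sign of this relation depended on the setting: over the 9716 genes r was -0.124, but 0.025 with 0 surrogate variables, 0.0364 with 10, 0.0178 with within-strain components, 0.0236 over the genes left by the filter on low counts and -0.0119 without E141. The median of the 490 genes beside chromosome 8 was -0.0286, and 0.0268, 0.0188, 0.0361, 0.0161 and -0.00645 in these fits. The comparison beside chromosome 8 is the double strain against (B6.A8 X B6)F1, and with the mitochondrial share or the GC slope as a covariate it had 98 or 130 called genes. Without E689 it had 302. On B6 the 3.69% called became 1.8%, 1.6%, 2.04% and 2.44% without the (B6 X B6.A3)F1 mice E187, E188, E375 and E457, respectively.

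Single mice moved these results. Without E141, E688 and E689 in turn, with the surrogate variables estimated again, the interaction was called for 743, 1068 and 568 genes, respectively. With the surrogate variables of the whole series kept, the counts were 759, 782 and 134. E141 differed from the other double mice in the 4th surrogate variable, with 0.166 against -0.104 and -0.0717. E688 differed from the others in the 1st, with 0.0971 against -0.0685 in E141 and -0.0696 in E689. Of the 1007 genes, 306 were called without each double mouse in turn with these variables estimated again, and 118 with them kept. In every one of these 6 fits all 1007 genes had the sign they had with all mice. The genes were chosen by their call with all mice and the fits share most mice, so this agreement is no test. The comparison with B6 moved further: 249 called genes became 251, 58 and 37 without E141, E688 and E689, and 23 genes were called in all 3 fits, of which 18 lie on chromosome 3 or 8. For chromosome 8 beside chromosome 3 the 25 called genes became 11 without E689, and 8 of the 25 were called in all 3 fits, 7 of them on chromosome 8.

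The 36 mice of the other strains moved the interaction count between 718 and 1372 when 1 was left out, with the surrogate variables kept. Both ends came from (B6.A8 X B6)F1: 718 without E597, which had the highest mitochondrial share of that strain (20.8%), and 1372 without E116, which had its lowest (9.42%) and its GC slope nearest to 0 (-0.0925). In the same strain the count was 1005 without E117 (share 10.8%) and 891 without E596 (share 18.9%). It was 1006 without E781, which had the steepest GC slope (-0.228). A relation of these counts to either measure was not tested. Leaving out E597 also lowered the count of the double strain against (B6.A8 X B6)F1 from 884 to 561. With the mitochondrial share, the small RNA level or the GC slope as a covariate beside the 5 surrogate variables, 1.57%, 4.48% and 1.43% of the genes tested had a called interaction. When a smooth curve on GC share was taken out of each mouse's values, 768 were called, 579 of them among the 1007. With 10 surrogate variables 39 were called, and with 0 there were 1458. The 654 higher and 353 lower genes had median interactions of 0.27 and -0.35 with 10 surrogate variables, against 0.44 and -0.49 with 5.

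**Figure D5:**
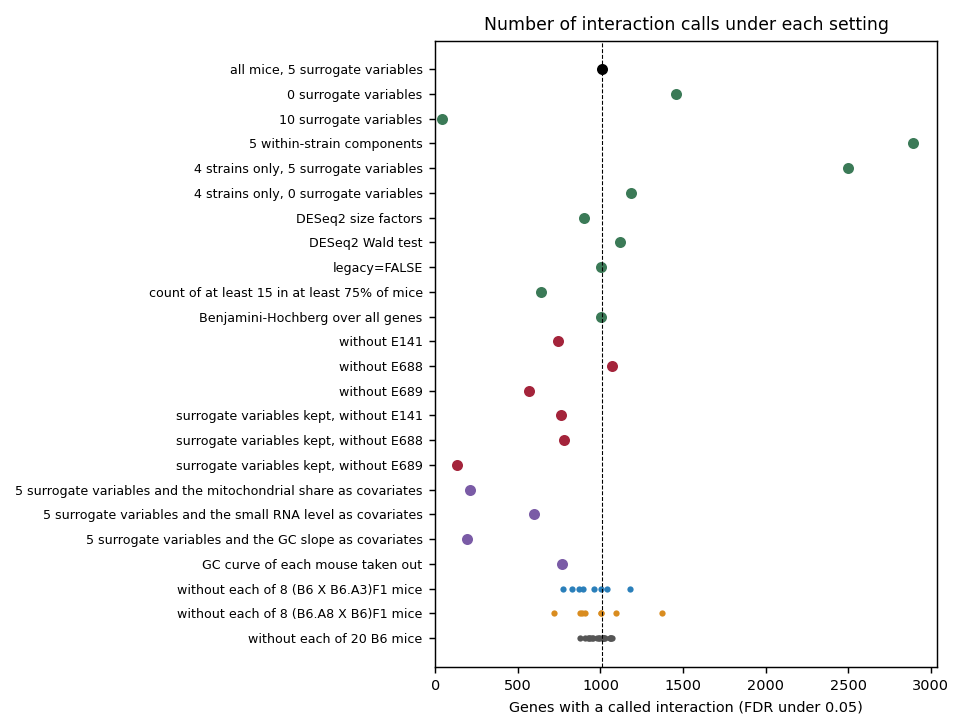
Number of genes with a called interaction (horizontal axis) with all mice and 5 surrogate variables (black, dashed line at 1007), under planned settings (green), without each double mouse (dark red), with covariates or corrections chosen after the data were seen (purple) and without each mouse of the other strains (1 point a mouse). The counts run from 39 with 10 surrogate variables to 2894 with 5 within-strain components.

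Of the 1007 genes, 20 were called in each further fit that tested them and that changed a setting or a covariate or left out a double mouse, 15 higher and 5 lower. For 19 of them these were 20 fits, and Gm26372, which the filter on low counts removed, was called in 19 of 19. They were picked out after their values were seen. The higher ones were Gne, Herpud1, Map1lc3b, Puf60, Fbp1, Lcat, Apom, the mitochondrial phenylalanine-tRNA synthetase gene Fars2 (0.49), the lysine-tRNA synthetase gene Kars (0.37), Anapc5 (0.36), a subunit of the anaphase-promoting complex, Vps4a (0.39), an ATPase of membrane scission, the mitochondrial phosphate carrier gene Slc25a3 (0.41), the ribosomal protein gene Rps28 (0.47), Agtr1a (0.53), the angiotensin II receptor gene, and Gm26372 (2.16), a short RNA gene at 0.975 to 2.79 CPM in the double mice. The lower ones were Pms1, Magoh, Rap1a, Aadac and Lhfpl2. Lhfpl2, for example, was at 9.96, 13.7 and 10.3 CPM in the double mice, with an additive level of 20.3 CPM and single-strain mice between 11.1 and 16.8 CPM, and its interaction ranged from -1.17 to -0.73 over its 20 fits.

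The calls among markers of other liver cell types stand against the 7.58% of all genes called with an interaction. Lists this short can hold few or no calls at that share, so these counts say little about the cell types. None of the 11 Kupffer cell markers was called with an interaction by edgeR, 1 was by DESeq2 and 6 had an unadjusted p under 0.05, and their summed level was between 365 and 434 CPM in the double mice, between 462 and 611 CPM in (B6 X B6.A3)F1, between 390.3 and 804.9 CPM in (B6.A8 X B6)F1 and between 409 and 665 CPM in B6. Of 11 sinusoidal endothelial markers 1 was called lower, and of 11 stellate cell and fibroblast markers 1 was called higher. None of 6 cholangiocyte, 8 lymphocyte, 2 neutrophil and 7 erythroid markers was called by edgeR or DESeq2, and 1, 0, 0 and 0 of them had an unadjusted p under 0.05. The 2 measured neutrophil markers summed to at most 1.03 CPM in the double mice and 14.3 CPM in B6. The 10 hepatocyte markers summed to between 91100 and 134800 CPM in the double mice, between 58240 and 117900 CPM in (B6.A8 X B6)F1 and between 105800 and 165500 CPM in B6. In whole liver, fewer cells of a type and less RNA per cell cannot be told apart.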

How the data were processed

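Total RNA of the caudate lobe was sequenced single-end with a stranded kit. The deposited table holds raw read counts per gene: per the study's methods, the authors aligned reads with TopHat2 to mm10, then the remaining reads to an individualized genome with A/J sequence, removed duplicate reads, counted with HTSeq, and left out 3 outlying mice and weakly expressed genes. Whether counting used strand is not stated. All 13289 deposited genes were tested, although a minimum of 15 counts in 75% of the 154 mice leaves 11852.

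Library sizes were normalized by TMM, and the model in edgeR 4.0.16 (R 4.3.3) held all 24 strains, as 8 main effects and 15 interactions, with 5 surrogate variables from sva 3.50.0. Contrasts gave the interaction and each pair of strains, with Benjamini-Hochberg adjustment within genes on and off the substituted chromosomes. Log2 CPM used a prior count of 2. The additive level of a gene was taken from unadjusted log2 means. The interaction fit was also run on simulated counts, drawn independently for each mouse, in which some genes were changed by known amounts. Its outcome is not reported here, and it does not bear on mice that share a litter. Strains came from the labels. The p-values and SEs rest on an estimate of the spread per gene that all 154 mice of the 24 strains share. They thus do not measure the spread among the 3 double mice alone. Some mice may share a litter, since litters are not given. DESeq2 1.42.0 was an alternative. Positions are those of GENCODE vM21 (GRCm38), which held 13242 of the genes.

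Genes were named by rule. Agt is discussed by the study for this cross. For the interaction, the rule took the 8 called genes with the smallest p and the 4 with the largest log2 value in each direction, and the 3 with the smallest p on each of chromosomes 3 and 8. For the comparison with B6 it took the 6 with the smallest p in each direction, and from each of 17 lists described, up to 4 members with the smallest interaction p. An average log2 CPM of at least 2 was required outside the lists. Members, rules and lists were chosen with earlier results of these data known. Separation of the double mice from other strains in a named gene goes with this choice, and its share over all genes was not counted. Some named genes are not reported here.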

Additional observations from a re-analysis of the deposited data

Results flagged for a closer look

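The effect of A/J chromosome 8 differed between its 2 backgrounds, B6 and A/J chromosome 3, for 1007 genes by the edgeR test of the interaction itself, which also tests whether the effect of chromosome 3 differs between its backgrounds. Among the 100 named genes, 200 groups of 8 mice were examined for a single mouse far from the others. The limit used is one that about 1 in 20 groups passes by chance alone. Of the 200 groups 4 passed it, a smaller share than that, so they are no excess. All 4 lie in (B6 X B6.A3)F1. Mup6 was at 8.43 CPM in E187, with the next mouse at 4.7 CPM, and F5 was at 706.1 CPM in the same mouse, with the next at 570.3 CPM. Aadac was at 437.04 CPM in E375, with the next mouse at 368.75 CPM, and Apom was at 262.1 CPM in E188, with the next at 223.6 CPM.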

How the results depend on the processing

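Calls are given here as the percent of the genes tested. The interaction was called for 0.293% with 10 surrogate variables, 21.8% with 5 within-strain principal components, 18.8% with the 4 strains alone and 5 surrogate variables, and 5.38% with the filter on low counts, under which 985 of the 1007 genes were tested and 554 called. With covariates chosen after seeing the data it was 1.57% (mitochondrial share), 4.48% (small RNA level) and 1.43% (GC slope). The double strain against B6 had 0.73% with 0 surrogate variables, 5.16% with within-strain components, and 0.715% and 0.391% with the 4 strains alone and 5 or 0 surrogate variables. Chromosome 8 beside chromosome 3 had 0.293% with 10 surrogate variables, 1.11% with within-strain components, 0.113% with the 4 strains alone and 0 surrogate variables, and 0.113% with adjustment over all genes at once. Chromosome 3 beside chromosome 8 had 15.5% and 0.715% with 0 and 10 surrogate variables, 25.8% with within-strain components, 21.4% and 12.9% with the 4 strains alone and 5 or 0 surrogate variables, and 0.737%, 3.94% and 0.978% with the 3 covariates in the order above. Chromosome 8 on B6 had 9.08% with 10 surrogate variables, 48.1% with within-strain components, 17% with the mitochondrial share and 12.8% with the GC slope. Chromosome 3 on B6 had 0.918% with 0 surrogate variables, and 1.35% and 0.662% with the 4 strains alone and 5 or 0 of them. The cause was not tested.

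When 1 mouse was left out, the surrogate variables were estimated again for a double mouse and kept for a mouse of the other strains. The percent called then ran from 4.27 to 10.3 for the interaction and 0.278 to 2.2 for the double strain against B6. It ran from 0.0828 to 0.218 for chromosome 8 beside chromosome 3 and 2.27 to 9.64 for chromosome 3 beside chromosome 8. On B6 it ran from 26.5 to 37.1 for chromosome 8 and 1.6 to 4.52 for chromosome 3. The lowest value came without E689 in each comparison that holds the double strain, without E597 for chromosome 8 on B6 and without E188 for chromosome 3 on B6. With the surrogate variables of the whole series kept, leaving out E689 gave 1.01% for the interaction, 0.309% against B6, 0.0903% for chromosome 8 and 0.369% for chromosome 3 beside the other, and leaving out E688 gave 0.519% against B6. DESeq2's Wald test called 1119 interactions, and 901 were called by edgeR with the size factors of DESeq2. The share of higher genes among the interaction calls was 64.9%, and it lay between 54.8% with the 4 strains alone and 5 surrogate variables and 74.6% with the mitochondrial share. All 1007 genes, or the 985 that the filter left, kept their sign under each setting and without each double mouse, apart from 1006 of 1007 with the GC curve taken out. Since the genes were chosen by their call in the same mice, this is a description. No paired analysis was possible because the replicate numbers were given in accession order and the labels carry none. With 3 double mice the median SE of the interaction was 0.135 on the log2 scale over the 9716 genes whose average log2 CPM was 2 or more, which limits the departures from the sum that could be called.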

Other observations

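Among further gene groups, interferon-stimulated genes gave no called interaction by edgeR (5 of 42 with an unadjusted p under 0.05, and 1 called by DESeq2). Against B6, 14 of the 42 were called higher in (B6 X B6.A3)F1, 9 in (B6.A8 X B6)F1 and 3 in the double strain, and edgeR called none lower. Over all genes, 3.69%, 29.7% and 1.87% were called in these comparisons, in either direction. Of 26 acute-phase genes 14 were called lower in (B6.A8 X B6)F1 and 2 in the double strain, against the same 29.7% and 1.87% of all genes. Of 80 cytoplasmic ribosomal protein genes 2 were called with an interaction, both higher, and the median over the 80 was 0.026.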
